A study of Mus musculus with 12 samples.

Results

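The PIWI-interacting RNA (piRNA) pathway was followed through 10 genes, Ddx4, Mael, Piwil2, Piwil4, Tdrd1, Tdrd5, Tdrd9, Mov10l1, Asz1 and Pld6, which were taken by name from the 22911 genes of the deposited RNA-Seq tables. All 10 genes were listed in both tables, and each had at least 1 read in every library. The RNA came from mouse epiblast-like cells (EpiLCs), which resemble the early post-implantation epiblast and were obtained from embryonic stem cells (ESCs) by 48 h in FGF2 and Activin A. Females were Kdm5c fl/fl (control) or Kdm5c Δ/Δ (mutant) and males were Kdm5c flY (control) or Kdm5c ΔY (mutant), with 3 libraries for each of the 4 genotypes. Kdm5c, called Smcx in the sample labels, is an X-linked gene for a demethylase of histone H3 lysine 4.

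The controls carried the floxed allele, in which loxP sites flank the exons for the catalytic JmjC domain, and not an unmodified allele. The Δ allele is the same allele after Cre recombination, and it lacks those exons in every cell, not in EpiLCs alone. Each genotype was represented by 3 independent ESC lines, derived from single blastocysts on feeder fibroblasts and then kept without feeders in 2i medium with LIF. The labels give the strain as C57BL/6J, whereas the methods describe the floxed strain as made on a mixed background, so differences of genetic background between lines were possible. Limma, fitted to log2(normalized count + 1) of all genes, was the test, with calls made at an adjusted p under 0.05 and the ± after a log2 change is its standard error. The comparisons ask how the loss of KDM5C changed these transcripts in each sex and whether the change differed between the sexes. Because the replicates are lines of 1 genotype each, a p-value here measures the spread between lines and libraries, and in bulk RNA fewer cells that express a gene cannot be told apart from less RNA per cell. An exact permutation test of a single gene gives at least p = 0.10 with 3 libraries against 3, the value for every gene whose libraries did not overlap.

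piRNAs are small RNAs that guide PIWI proteins to transposon transcripts in germ cells. Long precursors are unwound and cut at the outer membrane of mitochondria, the fragments are loaded into PIWI proteins, and in the cytoplasm these proteins cut transposon RNA in a cycle that makes further piRNAs. In the nuclei of fetal male germ cells, PIWI proteins direct DNA methylation to transposons. Mutations in the mouse genes of the pathway typically cause male sterility, and most of the genes are silenced by DNA methylation and by repressor complexes in somatic cells.

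The genes lie on different chromosomes, apart from Mael and Tdrd5 on chromosome 1, and none is on the X. On mm9, the build used for mapping, Asz1 spans chromosome 6 from 18000964 to 18059061, Piwil2 chromosome 14 from 70772287 to 70828901, Mael chromosome 1 from 168131516 to 168168875, Ddx4 chromosome 13 from 113388541 to 113442518 and Piwil4 chromosome 9 from 14500674 to 14545177, all on the minus strand. Exons of 9 of the 10 genes overlapped no exon of another gene. In Piwil4, 137 bp of exons (2.54% of the exon length) are shared with Gm10706 on the opposite strand, and whether reads were counted by strand is not given in the sources used here.

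Sequence upstream of the start was compared because germline genes are often bound at E-boxes by MGA and MAX and at related sites by E2F6, factors of a repressor complex. RefSeq promoters on GRCm38.p6 matched 9 of the 10 genes, and Piwil2 had no entry. In the 250 bases before the start, the E-box CACGTG, a palindrome, was present in 6 of the 9 (Ddx4, Mael, Mov10l1, Pld6, Tdrd1 and Tdrd9), and in 6.04% of 27026 promoters of this length. The letters TCCCGC, read on both strands, the core of an E2F-type site, were present in 3 of the 9 (Ddx4, Mael and Tdrd5), and in 16.9% of all promoters. Among 16 promoters of the other pathway genes described further below, 3 held the E-box and 2 the E2F-type letters. Neither motif contains the other, and their matches in these promoters did not overlap. Ddx4 and Mael are shown because they hold both motifs, and Asz1 and Piwil4 because they hold neither and because their transcripts changed in opposite directions in female mutants. Capitals mark CACGTG and TCCCGC (or its reverse complement), and each run is written 5′ to 3′ and ends next to the start.
Ddx4 (chr13:112652311-112652560, minus strand): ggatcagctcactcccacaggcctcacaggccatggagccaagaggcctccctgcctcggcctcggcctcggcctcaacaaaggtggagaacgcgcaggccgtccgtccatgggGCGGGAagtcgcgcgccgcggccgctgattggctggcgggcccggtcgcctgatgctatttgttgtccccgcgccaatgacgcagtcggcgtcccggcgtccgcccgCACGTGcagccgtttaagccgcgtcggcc
Mael (chr1:166238745-166238994, minus strand): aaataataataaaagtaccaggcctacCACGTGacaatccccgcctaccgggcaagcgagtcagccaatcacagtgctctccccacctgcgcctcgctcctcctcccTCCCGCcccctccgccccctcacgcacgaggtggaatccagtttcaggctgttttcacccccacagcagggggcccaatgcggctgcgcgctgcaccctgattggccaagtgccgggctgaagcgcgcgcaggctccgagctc
Asz1 (chr6:18109062-18109311, minus strand): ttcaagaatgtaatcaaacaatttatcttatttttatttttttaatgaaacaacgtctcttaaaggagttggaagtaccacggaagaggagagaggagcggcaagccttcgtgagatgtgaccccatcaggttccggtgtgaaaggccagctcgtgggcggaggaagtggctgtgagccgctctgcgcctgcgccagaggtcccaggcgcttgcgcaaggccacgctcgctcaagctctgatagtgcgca
Piwil4 (chr9:14740673-14740922, minus strand): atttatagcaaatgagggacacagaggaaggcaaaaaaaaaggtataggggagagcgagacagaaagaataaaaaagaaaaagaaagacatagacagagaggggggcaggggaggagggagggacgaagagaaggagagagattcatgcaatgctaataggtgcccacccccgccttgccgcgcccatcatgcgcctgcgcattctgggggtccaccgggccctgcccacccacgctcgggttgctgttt
The E-box began 29 bases before the start in Ddx4 and 223 bases before it in Mael, and the E2F-type letters began 136 and 143 bases before it. The match of letters is a description and does not show binding. Genes with the E-box did not share a direction. Ddx4 and Mael rose in female mutants, whereas the log2 changes of Mov10l1, Pld6, Tdrd1 and Tdrd9 were negative in both sexes, not all of them called. A link between motif and change was not tested.

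The tables give group means, from which whole reads of single libraries were worked out. The 51 to 77 genes with the highest means in each genotype were left out. The remaining genes held 5516216 to 11092731 reads per library. Scaling by total reads, as used below, means scaling by totals without the most abundant genes. Reads divided by the size factor of their library (0.696 to 1.28) are given as normalized counts. Libraries are called A, B and C within a genotype by falling size factor, and a letter links no libraries of different genotypes. Kdm5c had 2315 to 2429 normalized counts in fl/fl and 1406 to 1505 in Δ/Δ libraries, and 2110 to 2371 in flY and 1897 to 1976 in ΔY libraries (limma log2 changes of −0.70 ± 0.05 and −0.20 ± 0.10 (SE), adjusted p = 4.53e-09 and 0.271). These counts cover the whole gene, so they do not show the deletion of the exons itself. EpiLC markers (Pou5f1, Sox2, Otx2, Fgf5, Pou3f1 and Dnmt3b) were present in all 12 libraries, with 3 higher and 2 lower of 6 in female mutants and 3 lower in male mutants. They summed to 9206 to 9452 normalized counts in fl/fl, 12782 to 13278 in Δ/Δ, 10136 to 17317 in flY and 7554 to 11199 in ΔY libraries. These sums hide single markers. Sox2 was low in fl/fl (331 to 363) against 1670 to 1962 in Δ/Δ, 1364 to 2197 in flY and 1944 to 2291 in ΔY libraries. Otx2 was at 422 to 506, 546 to 655, 1140 to 1662 and 368 to 430 in the same order of genotypes. Several male libraries stood apart. In flY libraries A and C, 1024 and 951 of 1547 olfactory, vomeronasal, keratin-associated and defensin genes, which these cells should not use, had a read, against 64 to 126 in the other 10 libraries, and the mean there was 7.75 and 8.49 normalized counts per such gene against 1.06 to 2.07. ΔY library A and flY library B lay furthest from the other libraries of their genotype, with a median absolute log2 distance of 0.307 and 0.267 against 0.101 to 0.194 elsewhere. Each distance was taken to the mean of the other libraries of the genotype. For flY B these were A and C, the libraries with reads on silent genes, so its distance does not mark B as the unusual library. For the 10 pathway genes it is therefore stated where a male call changed when 1 of these libraries was left out.

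Levels per kb of exons, which allow a rough comparison between genes, ranged from 1.12 to 379 in control cells. The length joins all annotated exons of a gene, whether or not these cells use them. The annotation used for counting is not given in the sources used here. In fl/fl cells Ddx4 (103 ± 1.59 normalized counts per kb, SD, n = 3) and Mael (95.7 ± 10.5) led, and their libraries overlapped. Pld6 (50.5 ± 9.39) and Piwil2 (36.3 ± 1.09) came next, each apart from its neighbours, and Tdrd5, Mov10l1 and Tdrd1 followed between 21.0 and 23.6 with each neighbour overlapping. Piwil4 (6.26 ± 1.70) and Asz1 (5.94 ± 1.81) could not be ordered, and Tdrd9 was lowest (1.12 ± 0.27). In flY cells Mael was highest (379 ± 75.8), with Ddx4 (146 ± 20.6) and Mov10l1 (72.8 ± 4.68) after it, and Piwil4 (6.43 ± 1.08) and Tdrd9 (4.26 ± 0.98) were again at the bottom. In Δ/Δ cells Piwil2 (262 ± 7.45) and Ddx4 (237 ± 17.3) led with overlapping libraries, and Asz1 (191 ± 21.0) came after Mael, its libraries overlapping those of Mael (198 ± 10.6). In ΔY cells Ddx4 (207 ± 27.5) led, and Mael (123 ± 35.0) and Piwil2 (112 ± 47.2) were not separated.

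**Figure D1:**
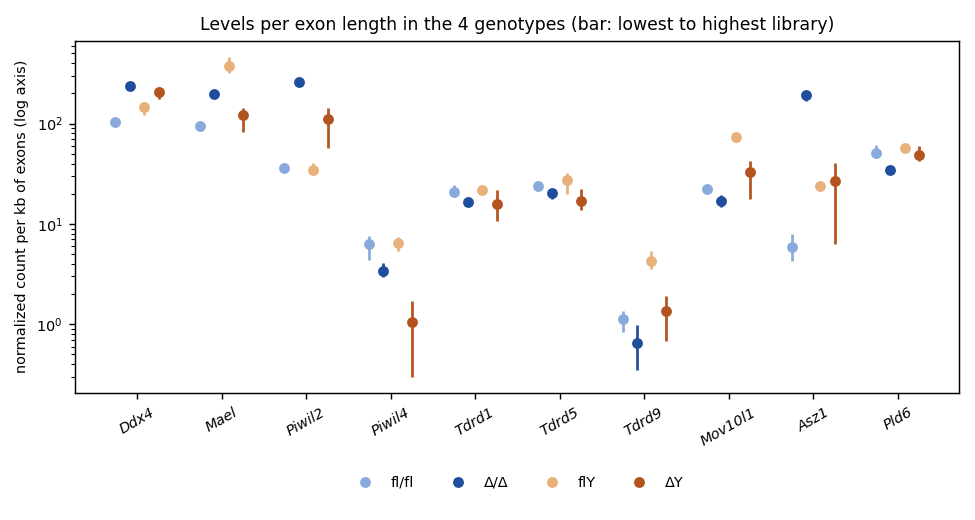
Normalized counts per kb of exons (log axis) for the 10 genes in the 4 genotypes; points are means of 3 libraries and bars run from the lowest to the highest library. Piwil2 and Asz1 in Δ/Δ cells stand far above the other genotypes at 262 and 191 per kb, and the lowest points are Tdrd9 in Δ/Δ cells at 0.653 and Piwil4 in ΔY cells at 1.05 per kb.

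Piwil2 and Piwil4 encode the PIWI proteins MILI and MIWI2, which bind piRNAs in fetal germ cells, MILI in the cytoplasm and MIWI2 in the nucleus. Piwil2 was at 184, 173 and 178 normalized counts in fl/fl libraries A, B and C, and at 1302, 1243 and 1311 in Δ/Δ libraries. In males it was at 162, 197 and 151 in flY and at 283, 661 and 705 in ΔY libraries. Mutant and control libraries did not overlap in either sex, and ΔY library A was far below the other ΔY libraries. Piwil2 rose 7.17-fold in females (log2 2.84 ± 0.06, adjusted p = 3.92e-16) and 3.00-fold in males (1.59 ± 0.31, adjusted p = 0.0159). The male call was lost without flY A, flY C, ΔY B or ΔY C (log2 1.56, 1.51, 1.40 and 1.35, adjusted p = 0.0772, 0.107, 0.0561 and 0.0591), whereas without ΔY A the change was 2.01 ± 0.14 (adjusted p = 3.02e-05).

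Piwil4 moved the other way. Its libraries stood at 37.2, 40.6 and 23.3 normalized counts in fl/fl and at 21.9, 16.0 and 17.2 in Δ/Δ cells. They stood at 34.9, 40.3 and 28.7 in flY cells and at 1.62, 9.12 and 6.21 in ΔY cells, which are 2, 9 and 6 reads. No mutant library reached a control library of its sex, although fl/fl library C and Δ/Δ library A differed by only a few reads (21 and 28 before scaling). Piwil4 fell by 0.82 ± 0.27 on the log2 scale in females (adjusted p = 0.0191), and the male log2 change was −2.62 ± 0.55 (adjusted p = 0.0231). The female call was lost in 4 of 6 fits that left out a library (without fl/fl A or B or Δ/Δ B or C, adjusted p = 0.0807, 0.0867, 0.0647 and 0.0594), and the male call in 3 of 6 (without flY A, flY C or ΔY C, adjusted p = 0.101, 0.101 and 0.0569). The ratio of Piwil2 to Piwil4 per kb was 4.68 to 8.35 in fl/fl and 5.07 to 5.75 in flY libraries, and 65.0 to 85.2 in Δ/Δ and 79.4 to 191 in ΔY libraries. The highest of these rests on the 2 Piwil4 reads of ΔY library A.

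**Figure D2:**
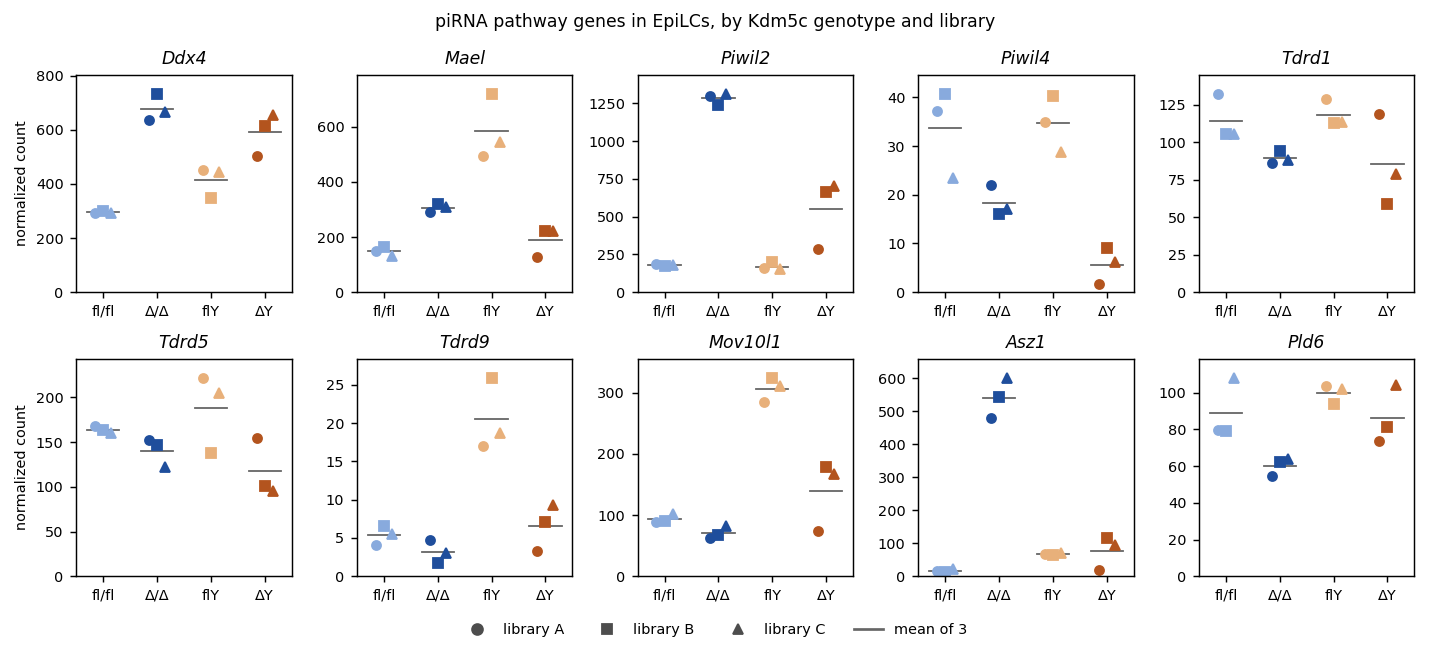
Normalized counts of each gene by genotype, with 1 marker per library (circle A, square B, triangle C) and a line at the mean of 3; each panel has its own axis from 0, and letters do not pair libraries of different genotypes. The Δ/Δ libraries of Piwil2 and Asz1 sit at 1243 to 1311 and 480.4 to 599, far above the fl/fl libraries, whereas all 3 ΔY libraries of Piwil4 lie below 10.

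Ddx4, Mov10l1 and Tdrd9 encode RNA helicases. DDX4 (mouse vasa homologue) marks germ cells and works in the cycle of piRNA amplification, MOV10L1 unwinds piRNA precursors, and TDRD9 acts with MIWI2. Ddx4 was at 293, 299.7 and 291 normalized counts in fl/fl and at 635, 731 and 664 in Δ/Δ libraries, and at 453, 347 and 446 in flY and 503, 613 and 655 in ΔY libraries. Every mutant library was above every control library of its sex. Ddx4 rose 2.29-fold in females (log2 1.19 ± 0.07, adjusted p = 1.32e-10). In males the difference was 0.51 ± 0.15, with a 95% confidence interval of 0.16 to 0.85, and did not pass the test (adjusted p = 0.0776), although without ΔY library A it was 0.62 ± 0.14 and passed (adjusted p = 0.0123).

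Mov10l1 stood at 89.5, 91.1 and 102 normalized counts in fl/fl, 62.7, 67.3 and 81.9 in Δ/Δ, 285, 324 and 312 in flY and 74.7, 178 and 167 in ΔY libraries. The flY libraries were high, the other genotypes were all under 180, and mutants lay below controls in each sex without overlap. It fell by 0.42 ± 0.15 on the log2 scale in females (adjusted p = 0.0235), and the male log2 change was −1.23 ± 0.29 (adjusted p = 0.0360). The female call was lost without Δ/Δ A, Δ/Δ B or fl/fl C (adjusted p = 0.0947, 0.0681 and 0.0916). The male call was lost without any 1 of the flY libraries or ΔY C (adjusted p = 0.0535 to 0.158), and without ΔY A the change was −0.83 ± 0.13 (adjusted p = 0.00206). Tdrd9 had 2 to 25 reads per library, with 4.02, 6.59 and 5.56 normalized counts in fl/fl, 4.70, 1.68 and 3.03 in Δ/Δ, 16.9, 25.8 and 18.7 in flY and 3.25, 7.10 and 9.31 in ΔY libraries. Its differences of −0.67 ± 0.42 in females and −1.58 ± 0.50 in males did not pass the test (adjusted p = 0.205 and 0.0854), with unadjusted 95% intervals of −1.56 to 0.21 and −2.69 to −0.47. Only in males were its libraries without overlap.

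Tdrd1 and Tdrd5 encode Tudor domain proteins, which bind methylated arginines of PIWI proteins and build the granules in which piRNAs are made. Tdrd1 was at 132, 105 and 106 normalized counts in fl/fl and at 86.2, 94.3 and 87.9 in Δ/Δ libraries, and at 129, 113 and 114 in flY and 118, 58.8 and 78.6 in ΔY libraries. Mutant libraries were below controls in females, and ΔY library A was within the range of the flY libraries. Tdrd1 fell by 0.34 ± 0.13 on the log2 scale in females (adjusted p = 0.0365), a call that was lost without fl/fl A, Δ/Δ A or Δ/Δ C (adjusted p = 0.164, 0.0960 and 0.0847). In males the difference was −0.52 ± 0.26 (adjusted p = 0.248), and without ΔY A it was −0.79 ± 0.20 and passed (adjusted p = 0.0219).

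Tdrd5 showed the smallest female difference of the 10 genes. It was at 168, 164 and 160.1 normalized counts in fl/fl, 153, 146 and 122 in Δ/Δ, 221, 138 and 206 in flY and 155, 101 and 95.2 in ΔY libraries. Female mutants were all lower than controls, whereas ΔY library A was above flY library B. The differences were −0.23 ± 0.11 in females (95% confidence interval −0.45 to 0.00, adjusted p = 0.0918) and −0.68 ± 0.25 in males (adjusted p = 0.129). The female difference passed when libraries were scaled by total reads (−0.30 ± 0.11, adjusted p = 0.0329), and the male one without ΔY A (−0.90 ± 0.21, adjusted p = 0.0160).

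Asz1 and Pld6 encode proteins of the outer mitochondrial membrane. ASZ1 (GASZ) anchors the site of piRNA processing there, and PLD6 (MitoPLD, Zucchini) is the nuclease that cuts the precursors. Asz1 was at 16.1, 12.1 and 22.2 normalized counts in fl/fl libraries, which are 11 to 20 reads, and at 480.4, 544 and 599 in Δ/Δ libraries, which are 593 to 646 reads. In males it was at 68.8, 64.1 and 71.9 in flY and at 17.9, 115 and 94.1 in ΔY libraries. The female groups were far apart, whereas the ΔY libraries lay on both sides of the flY libraries, A below and B and C above. Asz1 rose 31.2-fold in females on the scale with 1 count added (log2 4.96 ± 0.17, adjusted p = 1.14e-13), the steepest change of the 10 genes. In males the difference was −0.23 ± 0.58 with a 95% confidence interval of −1.52 to 1.07 (adjusted p = 0.814). Its sign depended on 1 library, since without ΔY A it was 0.60 ± 0.20 (adjusted p = 0.0641), and the log2 ratio of the deposited male means was 0.15.

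Pld6 was at 79.5, 79.1 and 108 normalized counts in fl/fl, 54.9, 62.3 and 63.7 in Δ/Δ, 103.7, 94.1 and 102 in flY and 73.9, 81.1 and 104.5 in ΔY libraries. Female mutants were below all female controls, and ΔY library C lay above every flY library. Pld6 fell by 0.54 ± 0.16 on the log2 scale in females (adjusted p = 0.00915), a call that was lost without fl/fl C (−0.39 ± 0.17, adjusted p = 0.0697). In males the difference was −0.22 ± 0.21, with an interval of −0.69 to 0.25 (adjusted p = 0.522).

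Mael encodes Maelstrom, a protein of piRNA granules and nuclei needed to silence transposons. It was at 149, 164 and 131 normalized counts in fl/fl, 289, 322 and 309 in Δ/Δ, 494, 717 and 546 in flY and 127, 222 and 220.3 in ΔY libraries. The direction was opposite in the sexes, with all Δ/Δ libraries above all fl/fl libraries and all ΔY libraries below all flY libraries. Mael rose 2.07-fold in females (log2 1.05 ± 0.10, adjusted p = 4.86e-08) and fell by 1.65 ± 0.23 on the log2 scale in males (adjusted p = 0.00412). Both calls held without any 1 library (adjusted p up to 0.0388 in males).

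In females 8 of the 10 genes passed the test, 4 higher and 4 lower. Of all 19572 genes tested, 25.4% were called higher and 24.7% lower, so that calls were frequent among all genes too. They were more frequent over genes with a mean of at least 10 normalized counts, where 9161 of 13904 were called. Of the 9 pathway genes in that fit, 4 were higher and 4 lower. Libraries of 9 genes did not overlap between the genotypes, against 54.8% of all genes. The median log2 change was −0.28 over the 10 genes and 0.00 over all genes. The 4 genes called higher (Asz1, Piwil2, Ddx4 and Mael) were called without each library in turn, and each of the 4 called lower lost its call in at least 1 such fit.

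In males 4 of the 10 genes passed, Piwil2 higher and Mael, Piwil4 and Mov10l1 lower, where 4.21% of 21872 genes were called higher and 3.59% lower. Over genes with a mean of at least 10 normalized counts, 1753 of 14276 were called, with 1 of the 10 genes higher and 3 lower. Libraries of 6 genes did not overlap, against 26.5% of all genes. The median log2 change was −0.60 over the 10 genes and −0.16 over all genes (0.00 over genes with a mean of at least 10 normalized counts). Leaving out 1 library gave 1 (without flY A, flY C or ΔY C) to 7 (without ΔY A) calls among the 10. With flY library B as the lone male control, limma called 0 of 19038 genes, with 2803 at an unadjusted p under 0.05, and a lone library is assumed to vary like the ΔY libraries. The log2 differences in that fit were 1.36 for Piwil2, −1.96 for Mael, −2.84 for Piwil4 and −1.30 for Mov10l1. In flY library B, which had few reads on silent genes, Piwil2, Piwil4, Tdrd9, Mael and Mov10l1 were higher than in flY libraries A and C, Piwil2 at 197 normalized counts against 162 and 151. Ddx4, Tdrd1, Tdrd5, Asz1 and Pld6 were lower there than in A and C, Ddx4 at 347 against 453 and 446. The male log2 change of Piwil2 was 1.59 with all 3 controls.

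**Figure D3:**
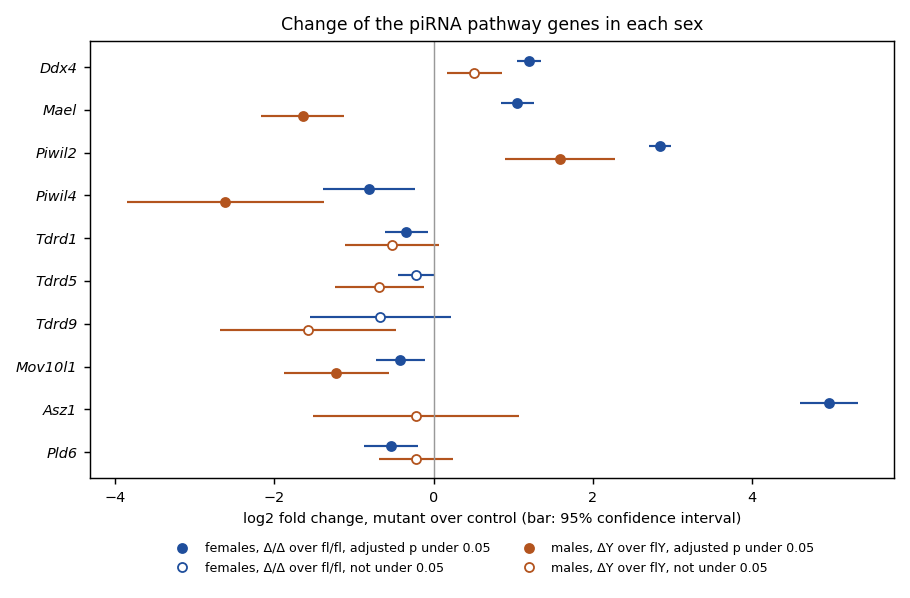
Log2 fold change of the mutant over the control in females (blue) and males (orange), with bars for the 95% confidence interval and filled points for an adjusted p under 0.05. Mael lies at 1.05 in females and −1.65 in males, Asz1 at 4.96 and −0.23, and the remaining genes lie on the same side of 0 in both sexes.

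The change in males was compared with that in females by the interaction of sex and genotype over all 12 libraries. It was lower in males for 4 genes and higher for 0, where 10.7% of 22014 genes were called lower and 10.6% higher. The genes were Asz1 (−5.19 ± 0.69 on the log2 scale, adjusted p = 0.000154), Mael (−2.70 ± 0.27, adjusted p = 1.82e-05), Piwil2 (−1.25 ± 0.35, adjusted p = 0.0211) and Ddx4 (−0.69 ± 0.17, adjusted p = 0.0109). These are the genes that rose in females. The call of Piwil2 was lost without flY library B (−1.14, adjusted p = 0.0535), and without flY libraries A and C the calls of Asz1 and Mael remained, whereas Ddx4 (−0.44, adjusted p = 0.105) and Piwil2 (−1.48, adjusted p = 0.0699) did not pass. For Piwil4 the difference of −1.80 ± 0.63 did not pass (adjusted p = 0.0565), but passed with limma voom (adjusted p = 0.0308), over genes with a mean of at least 10 (0.0373) or without ΔY B (0.0206). Tdrd5 passed without ΔY A (−0.67, adjusted p = 0.0413). For Tdrd1, Tdrd9, Mov10l1 and Pld6 the intervals of the difference were −0.82 to 0.46, −2.28 to 0.46, −1.58 to −0.04 and −0.23 to 0.86.

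The controls differed between the sexes before any loss of Kdm5c. Asz1 (−2.00 ± 0.49 on the log2 scale, fl/fl over flY), Mael (−1.97 ± 0.19), Tdrd9 (−1.75 ± 0.45), Mov10l1 (−1.69 ± 0.25) and Ddx4 (−0.48 ± 0.12) were lower in female controls, with adjusted p from 1.47e-05 to 0.0142. These 5 genes stand beside 11.8% of all genes called lower and 9.70% higher. Of those calls 45.0% were higher, and 36.2% when libraries were scaled by total reads without the most abundant genes. That scaling changed no call among the 10. Piwil2, Piwil4, Tdrd1, Tdrd5 and Pld6 did not pass, with differences between −0.18 and 0.08. Calls were lost for Ddx4 without flY A or flY C (adjusted p = 0.0581 and 0.0547), for Tdrd9 without fl/fl A (0.0599) and for Asz1 without fl/fl B (0.0510) or with limma voom (0.0672). With flY B as the lone male control only Mael and Mov10l1 passed.

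Between the mutants, Asz1 (3.19 ± 0.49, Δ/Δ over ΔY), Piwil4 (1.74 ± 0.44), Piwil2 (1.33 ± 0.25) and Mael (0.73 ± 0.19) were higher in females and Mov10l1 (−0.89 ± 0.25) lower, with adjusted p from 0.000416 to 0.0193. Of all genes 12.6% were called higher and 12.6% lower in this comparison. The split moved with the scaling, from 50.1% of calls higher to 36.2% when libraries were scaled by total reads without the most abundant genes. Among the 10 genes that scaling added Pld6 as lower (−0.62, adjusted p = 0.0245). The call of Mov10l1 was lost without Δ/Δ A, Δ/Δ B, ΔY B or ΔY C (adjusted p = 0.0730, 0.0612, 0.0940 and 0.0896), whereas Tdrd5 (0.51, adjusted p = 0.0362) and Pld6 (−0.61, adjusted p = 0.0169) passed without ΔY A, and Pld6 also without flY B or over genes with a mean of at least 10 (adjusted p = 0.0487 and 0.0364). Controls and mutants of each sex enter the interaction too, so these 3 comparisons share libraries.

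Summed over the 10 genes, fl/fl libraries held 1127 to 1152 normalized counts and Δ/Δ libraries 3089 to 3259. The male libraries held 1967 to 2060 in flY and 1359 to 2135 in ΔY cells, where library A alone was below the controls. Piwil2 made up 15.3% to 16.0% of the sum in fl/fl and 38.5% to 42.1% in Δ/Δ libraries, and 7.56% to 9.58% in flY and 20.8% to 33.0% in ΔY libraries. The make-up of the set thus differed between mutant and control in both sexes, and its sum did so without overlap in females.

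A further 22 genes of the pathway and its regulators were measured. In females 11 were higher and 7 lower, where 25.4% of all genes were called higher and 24.7% lower. In males 7 were higher and 2 lower, where the shares of all genes were 4.21% and 3.59%. Their median log2 change was 0.54 in females and 0.35 in males. The list was written with earlier results of these data known and is described beside the same shares of all genes as above. In both sexes 5 rose, namely Stk31 (5.10 in females and 1.35 in males on the log2 scale), which encodes a Tudor domain kinase, Tex15 (3.21 and 1.61), needed for piRNA-directed DNA methylation, Dnmt3l (2.13 and 2.18), the cofactor of the de novo DNA methyltransferases, Tdrd12 (2.06 and 1.29), a Tudor domain helicase, and Rnf17 (1.32 and 0.47), another Tudor domain protein. Gtsf1 (−0.997 and −2.10), a partner of PIWI proteins in the cutting of targets, and Mybl1 (−0.95 and −0.96), the transcription factor A-MYB that drives pachytene piRNA genes, fell in both.

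Tdrd7, which encodes a granule protein, went in opposite directions. It was at 139, 136 and 121 normalized counts in fl/fl, 64.3, 58.9 and 67.7 in Δ/Δ, 61.8, 47.6 and 64.7 in flY and 86.0, 189.5 and 187 in ΔY libraries. The fl/fl libraries were thus high in females and the ΔY libraries in males. It fell by 1.04 ± 0.13 on the log2 scale in females and rose by 1.32 ± 0.32 in males, and the interaction was 2.36 ± 0.36 (adjusted p = 0.000413). Further genes that rose in females were Morc1 (2.40), Btbd18 (1.59), Pnldc1 (1.26), Fkbp6 (0.66), Wdr77 (0.65) and Prmt5 (0.42), and Tdrd6 (−1.32, a call lost without fl/fl A or Δ/Δ C, adjusted p = 0.0539 and 0.0501), Gpat2 (−0.85), Tdrkh (−0.62) and Snd1 (−0.34) fell. Mov10, the paralog of Mov10l1 that is used outside the germline, rose in males (0.89). Exons of Wdr77 share 1360 bp (20.5% of the exon length) with Atp5f1 and Ovgp1, so its value is uncertain. In males the calls of Tdrd7 and Mov10 were lost in 5 of 6 fits that left out a library, those of Rnf17 and Mybl1 in 4 and those of Gtsf1, Stk31 and Tex15 in 2. With limma voom Tdrd7 and Mov10 did not pass (adjusted p = 0.0796 and 0.0552), which left 5 genes higher. Without 1 library between 2 genes (without flY A or flY C) and 12 (without ΔY A) were called. The change in males was lower than in females for Stk31, Morc1, Tex15, Rnf17, Tdrd12 and Pnldc1, and higher for Tdrd7, Mov10 and Snd1. Of all genes 10.7% were called lower and 10.6% higher in this comparison. The call of Pnldc1 was lost in 9 of 12 fits that left out a library (adjusted p = 0.0516 to 0.122), and that of Mov10 without flY libraries A and C (adjusted p = 0.0897).

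**Figure D4:**
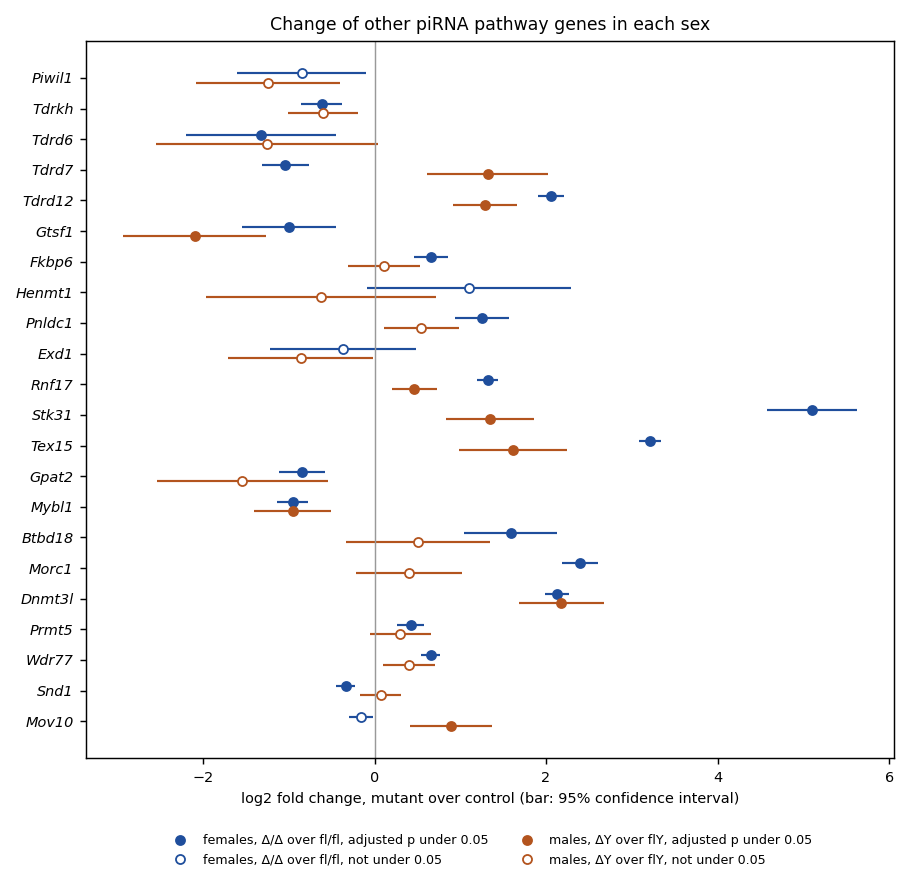
Log2 fold change of the mutant over the control for 22 other genes of the pathway in females (blue) and males (orange), with 95% confidence intervals and filled points for an adjusted p under 0.05. Stk31 is furthest right at 5.10 in females, and Tdrd7 lies at −1.04 in females and 1.32 in males.

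Markers of other cell types moved with several of these genes, and their part in the results was not tested. Calls among markers, the EpiLC markers included, stand beside 25.4% of all genes called higher and 24.7% lower in females. In males these shares were 4.21% and 3.59%. The summed level of 6 endoderm markers (Gata4, Gata6, Sox17, Foxa2, Apoa1 and Afp) was 152 to 205 normalized counts in fl/fl, 2086 to 2197 in Δ/Δ and 1018 to 1232 in flY libraries, and 190 in ΔY library A against 1313 and 1298 in B and C. Asz1 was at 12.1 to 22.2 in fl/fl, 480.4 to 599 in Δ/Δ, 64.1 to 71.9 in flY and 17.9, 115 and 94.1 in ΔY libraries A, B and C. Both were lowest in fl/fl libraries and ΔY A and highest in Δ/Δ libraries. The male sums join markers that moved in opposite directions. Apoa1 reached 461 in ΔY against at most 50.7 in flY libraries. Sox17 was lower in ΔY (19.5 to 116) than in flY libraries (267 to 296), as was Gata6 (39.8 to 212 against 296 to 412). The ranges of Gata4, Foxa2 and Afp overlapped between these genotypes. In females 6 of the 6 endoderm markers rose, in males 0 rose and 1 fell, and none was at 0. Naive ESC markers (Zfp42, Klf4, Esrrb, Nr0b1, Tbx3 and Tfcp2l1) summed to 889 to 900.3 in fl/fl and 2756 to 2896 in Δ/Δ libraries, and to 1367 to 2379 in flY and 3757 to 6832 in ΔY libraries, with 6 of 6 and 4 of 6 called higher. Piwil2 was also higher in the mutants of both sexes. Its level was highest in Δ/Δ libraries, at 1243 to 1311 normalized counts against 283 to 705 in ΔY, whereas the naive sum was highest in ΔY libraries.

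Markers of germ cells were not all on. Primordial germ cell markers (Prdm1, Prdm14, Tfap2c, Nanos3, Dnd1 and Dppa3) summed to 576 to 634, 780.1 to 827, 469 to 546 and 1197 to 1252 normalized counts in fl/fl, Δ/Δ, flY and ΔY libraries, with 3 higher and 1 lower of 6 in females and 2 higher in males. Meiotic and spermatid markers summed to 896 to 1001, 1967 to 2357, 1178 to 1250.2 and 1045 to 1884. Of these, the meiotic genes Sycp1, Sycp3, Stra8 and Dmc1 held nearly all counts, whereas the spermatid gene Prm1 was at 0 in all libraries and Acrv1 and Tnp1 reached at most 2.87. In each sex 3 of the 6 tested were higher and 1 lower. Sycp1, Stra8 and Dmc1 were higher in mutant libraries of both sexes, whereas Sycp3 was lower. Sycp3 was at 360 to 404 in fl/fl, 216 to 254 in Δ/Δ, 805 to 909 in flY and 169 to 215 in ΔY libraries. Stromal markers (Col1a1, Col1a2, Dcn, Lum, Postn and Thy1), which feeder fibroblasts express, summed to 2165 to 2203, 658 to 725, 509 to 715 and 3808 to 4485, while Dcn and Lum were at 0.00 to 8.78. The stromal sum was thus low in Δ/Δ and flY libraries, with 3 of 6 markers lower in females and 3 higher in males. Tdrd7 was also lower in Δ/Δ and flY libraries (47.6 to 67.7 normalized counts) than in fl/fl and ΔY libraries (86.0 to 189.5), although ΔY library A, at 86.0, was below the fl/fl libraries while its stromal sum was above theirs. Whether fibroblasts were present, and whether they had a part in the result, was not tested. Markers of 2-cell-like cells were at 47.3 to 103 in 11 libraries and at 369 in ΔY library A, the ΔY library in which all of the 10 genes but Tdrd1 and Tdrd5 were lowest.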

How the data were processed

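RNA-Seq was performed on EpiLCs of 4 genotypes, with 3 samples each. According to the methods and processing notes, ribosomal RNA was removed and single-end reads of 50 bp that mapped uniquely were placed on mm9 with TopHat2 2.1.0 and Bowtie2 2.2.6.0. The annotation used for counting is not given in the sources used here. The signal columns that the authors deposited hold mean normalized counts per genotype, in 1 table per sex made with DESeq. The fold changes and p-values of the authors' own comparisons in these tables were not used.

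The members and gene lists were chosen with earlier results of these data known. All 10 genes were named, of the other pathway genes (22 of 23 measured) those that passed in either sex, and of the markers the defining ones.

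The tests needed values of single libraries. A mean over 3 libraries adds up each library's whole number of reads over its size factor, then divides by 3. The whole numbers were solved for means up to 10000, and every such gene had 1 solution (22808 genes in all 12 libraries). The size factors were 0.988 to 0.999 times median-of-ratios factors over all 12 libraries, so the tables of both sexes were compared.

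Limma 3.58.1 (R 4.3.3) with an intensity trend was fitted to log2(normalized count + 1) over genes with at least 1 read, within each sex for the genotypes and over all 12 libraries otherwise, with Benjamini-Hochberg adjustment. Both the solver and the fit were tested on simulated data before use. Alternatives were a pseudocount of 0.1, a minimum mean of 10, scaling by total reads of the solved genes, limma voom and leaving out each library. Fits without flY libraries A and C were added after the data had been seen. The 5516216 to 11092731 reads per library cover the solved genes only and are not full depths. Exon lengths are from GENCODE on mm9. Numba 0.67.0 under Python 3.11.15, scipy 1.17.1 and matplotlib 3.10.9 were used.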

Additional observations from a re-analysis of the deposited data

Results flagged for a closer look

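For 4 of the 10 genes the change in males differed from that in females in the test of the interaction of sex and genotype, where 10.7% of 22014 genes were called lower and 10.6% higher. The log2 change in males minus that in females was −5.19 for Asz1, −2.70 for Mael, −1.25 for Piwil2 and −0.69 for Ddx4. For Mael the mutant libraries lay above the controls in all 3 female libraries and below them in all 3 male libraries. For Asz1 the male mutant libraries lay on both sides of the controls, at 17.9, 115 and 94.1 normalized counts against 64.1 to 71.9. Piwil2 and Ddx4 were higher in the mutant libraries of both sexes, by a smaller amount in males. ΔY library A had the lowest value of each of these 4 genes among the ΔY libraries, and without it all 4 differences passed the test. Piwil2 did not pass without flY B (adjusted p = 0.0535), and neither Piwil2 (0.0699) nor Ddx4 (0.105) passed without flY libraries A and C.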

How the results depend on the processing

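Most of the values for single genes kept their direction and their side of the threshold. In females 48 of 49 values under other settings did so, the exception being Tdrd5 under scaling by total reads, and 49 of 60 with 1 library left out, where calls of Piwil4, Mov10l1, Tdrd1 and Pld6 were lost. In males 45 of 60 values did so with 1 library left out. The cause was not tested for any change that follows.

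Leaving out 1 library gave 333 to 4691 genes called in males (1705 with all libraries; 4691 without flY B, 4310 without ΔY A, 595, 527, 413 and 333 without ΔY B, ΔY C, flY A and flY C), and 1 to 7 of the 10 genes. It gave 3554 to 7334 genes with a different change in the sexes (4675 with all; 7334 without flY B), and 2894 to 8318 that differed between the controls (4741 with all; 8318 without flY B, 3054, 2894, 3019, 3075 and 3079 without fl/fl A, B and C, flY A and flY C).

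Directions that turned belonged to differences that did not pass. The male log2 change of Asz1 ran from −0.71 to 0.60 with 1 library left out and was 0.15 from the deposited means. The difference of the changes for Tdrd1 ran from −0.44 to 0.055. Between controls, Piwil2 ran from −0.0013 to 0.19, Piwil4 from −0.21 to 0.17 and Tdrd1 from −0.16 to 0.0066, and between mutants Tdrd1 ran from −0.11 to 0.39.

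Without flY libraries A and C, which leaves 1 male control, 0 genes and 0 of the 10 passed in males (2803 genes at an unadjusted p under 0.05), 2 of the 10 passed in the difference between the sexes, and 2040 genes and 2 of the 10 passed between controls, where Piwil2 (−0.15), Tdrd1 (0.012) and Tdrd5 (0.25) turned. Limma voom was not run in that setting. No paired analysis was possible because the worked-out libraries carry no replicate numbers. Tdrd9 and Piwil4 had as few as 2 reads in a library.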
